A study of Mus musculus with 4 samples.

Results

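Type I and type II interferons signal through JAK kinases to transcription factors of the STAT family, and the genes they switch on encode antiviral and antibacterial effectors. The interferon-induced gene families examined here are those whose symbols begin with Ifit (IFIT and IFITM proteins), Ifi2 (the HIN-200 DNA sensors and the Ifi27 genes), Oas, Gbp, Slfn or Isg, together with a fixed set of single symbols, among them Rsad2, Mx1, Mx2, Irf1, Irf2, Irf7, Irf9 and Stat2. The rule matched 67 symbols in the gene list, and the 44 with at least 50 unique molecular identifiers (UMIs, each standing for 1 captured transcript) over 4 libraries are the members described. They are 44 of the 12988 genes that passed the same minimum. All 44 had at least 1 UMI in each library. Of the 23 symbols left out, 5 had 0 UMIs (Ifi202b, Gbp2b, Gbp10, Oas1f and Ifi27l2b). The nearest to the minimum were Gbp9 with 48, Ifitm5 with 45 and Ifi206 with 38 on the outside, and Oasl1 with 71, Ifi211 with 76 and Gbp8 with 83 on the inside. Mx1 and Mx2 were not among the symbols of the gene list.

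Myeloid-derived suppressor cells (MDSCs), immature myeloid cells that restrain T cells, were grown from mouse bone marrow for 4 days with IL-6 and GM-CSF at 40 ng/mL each. The cultures came from wild type (WT) or β2AR-/- mice, which are made to lack the β2-adrenergic receptor, and held either 10 µM isoproterenol (ISO), an agonist of β-adrenergic receptors, or PBS. Live CD11b+ cells were sorted, pooled as suspensions and profiled by single-cell RNA sequencing, with 1 library for each of WT + PBS, WT + ISO, β2AR-/- + PBS and β2AR-/- + ISO. The groups follow the titles, with PBS as the control, whereas the treatment field of the labels reads isoproterenol for all 4 samples. The kept cells numbered 2210, 2264, 2790 and 2039 in that order, with 19357824 to 29400468 UMIs per library. No cell barcode was shared between libraries. Genotype is given as labelled throughout, so every genotype comparison is between libraries labelled WT and libraries labelled β2AR-/-. Levels are UMIs of a gene per 1000000 UMIs of the library (CPM). Because each group was 1 library, no difference was tested. Intervals are 95% and cover counting error only, and a member is called higher or lower where its CPM differed by at least 2-fold.

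Short DNA elements are known to carry the interferon response. A complex that holds STAT2 and IRF9 binds the interferon-stimulated response element (ISRE), and STAT dimers bind the gamma-activated site (GAS). The RefSeq promoter table (GRCm38.p6, the assembly behind mm10) held windows from 250 bases before to 50 after the start site for 38 of the 44 members. Ifi204, Gbp8, Oas2, Ifi27 and Ifi27l2a were among the 6 with no entry. The letters GAAANNGAAA, searched on both strands, stood in a window of 22 of the 38 members (57.9%), against 3.99% of the 27025 genes in the table. The letters TTCNNNGAA, which read the same on both strands, stood in windows of 9 members (23.7%), against 9.55% of genes. Neither was found for 12 members: Ifitm1, Ifitm10, Slfn1, Slfn2, Slfn3, Slfn4, Irf7, Irf9, Ifi209, Isg20l2, Oasl1 and Oasl2. A match of letters is not evidence of binding, and no match speaks for these windows alone.

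Ifit1 and Ifit1bl2 are shown because they start on opposite strands 145 bases apart and hold both of their ISRE matches in common, while they were highest in different clusters. The highest cluster of Ifit1 lay within counting error of the next, and a few single cells weigh on its level there, as given below. The stretch between their start sites, chr19:34640744-34640888 on the plus strand, reads as follows, with the ISRE letters in capitals.
Ifit1 and Ifit1bl2: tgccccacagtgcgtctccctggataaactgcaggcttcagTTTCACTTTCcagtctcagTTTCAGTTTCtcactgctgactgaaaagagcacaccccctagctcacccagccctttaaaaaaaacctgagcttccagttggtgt
The matches begin 104 and 85 bases before the Ifit1 start. Isg15 (chr4:156200819-156200948, minus strand), a ubiquitin-like protein, held 3 overlapping matches in the 130 bases before its start. Rsad2 (chr12:26456453-26456582, minus strand), the antiviral enzyme viperin, held 1, and so did Ifitm2 (chr7:140955962-140956091, minus strand). Ifitm1 (chr7:140967946-140968075, plus strand), which gave more UMIs than any other member, held none and is shown beside them.
Isg15: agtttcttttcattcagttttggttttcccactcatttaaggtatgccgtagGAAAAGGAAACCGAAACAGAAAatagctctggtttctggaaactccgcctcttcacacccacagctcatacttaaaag
Rsad2: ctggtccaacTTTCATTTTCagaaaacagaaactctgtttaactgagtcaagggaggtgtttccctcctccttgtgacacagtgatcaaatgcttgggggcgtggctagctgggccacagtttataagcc
Ifitm2: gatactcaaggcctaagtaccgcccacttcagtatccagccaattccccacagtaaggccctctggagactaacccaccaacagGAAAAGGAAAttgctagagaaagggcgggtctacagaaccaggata
Ifitm1: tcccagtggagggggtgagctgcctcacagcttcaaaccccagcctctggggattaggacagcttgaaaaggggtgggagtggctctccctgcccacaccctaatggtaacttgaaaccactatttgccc

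The members' UMIs were very unequally divided. The Ifitm family, membrane proteins that hinder viruses from entering cells, held 87.7% of the 687474 member UMIs. Ifitm1 alone held 52.6%, Ifitm3 17.6%, Ifitm2 9.16% and Ifitm6 8.24%. These 4 genes lie together on chromosome 7 between positions 140954837 and 141016892. Outside the Ifitm family, Slfn2, a Schlafen protein linked to immune cell quiescence, held 3.86%. The classical markers of an interferon response were sparse. Isg15 had 1023 UMIs over all 4 libraries, Ifit1 104, Rsad2 89 and Oasl1 71, of 101707790 in all. No UMI of Ifnb1, the gene of interferon-β, was found, and this allows at most 0.0295 CPM over the 4 libraries together. The other interferon genes looked for, Ifna1, Ifna2, Ifna4, Ifna5, Ifne, Ifng, Ifnl2 and Ifnl3, were also at 0, and Ifnk had 4 UMIs. The sum over members was 5962 CPM in WT + PBS, 6372 in WT + ISO, 6934 in the library labelled β2AR-/- + PBS and 8094 in that labelled β2AR-/- + ISO, and this order is mostly that of the Ifitm genes. Without the Ifitm family the sums were 773, 757, 892 and 927 CPM, with WT + ISO lowest. UMI counts were not scaled by transcript length, so CPM are compared between cells and libraries for a given gene and not between genes.

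Clustering without the members and without the other interferon lists gave 8 clusters. They are named below by their leading genes. Cluster 0 (2063 cells) was led by Mrc1 and C1qb and carried both monocyte and macrophage markers. Cluster 1 (1879 cells) was led by Ltf and was specific-granule neutrophil-like, and Ifitm6 itself was among its 10 leading genes. Cluster 2 (1716 cells) was led by Gpnmb, had a median of 2966 UMIs per cell and stayed unnamed. It held 5 of 6 mature neutrophil markers in at least 10% of its cells (mean log2 ratio to the other cells 1.41), but none was among its 10 leading genes. Cluster 3 (1218 cells) was led by Retnlg and Mmp9 and was mature neutrophil-like, with Ifi204 and Slfn4 among its 10 leading genes. Cluster 4 (1061 cells) was led by Ncam1, Camp and Fcnb, and cluster 5 (800 cells) by Kcnq5 and Muc13. Both stayed unnamed. Cluster 6 (463 cells) was led by Mpo and Elane and was azurophil-granule progenitor-like. Cluster 7 (103 cells) was led by Ccl5, Ccr7 and Ccl22 and was dendritic cell-like. Cluster 4 held 6 of 6 specific-granule markers but missed a threshold for naming set with the clusters in view. It took 10.7% of the cells of WT + PBS, 17.4% of WT + ISO, 8.21% of the library labelled β2AR-/- + PBS and 9.86% of that labelled β2AR-/- + ISO.

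The members did not share 1 cluster in which all were highest. Of the 44 members, 13 were highest in the dendritic cell-like cluster 7, 12 in the Retnlg cluster 3, 8 in the Gpnmb cluster 2, 5 in the Ltf cluster 1, 3 in the Mpo cluster 6, 2 in cluster 5 and 1 in cluster 0. None was highest in cluster 4. The highest cluster stood above the next beyond counting error for 10 of the 13 in cluster 7 and 6 of the 12 in cluster 3. It did so for 3 of the 8 in cluster 2, 4 of the 5 in cluster 1 and none in clusters 6, 5 and 0. The Mpo cluster was lowest for 25 members. The CPM of the highest cluster was at least 2-fold that of the lowest for 42 of the 44, all but Rsad2 and Oas1g. For this the lowest cluster was set to no less than 3 counts, and counting error was not taken into account. The shares of all genes highest or lowest in each cluster, or with such a range, were not computed. These counts thus describe the members and cannot be set against a background. Levels here are shares of a cluster's UMIs, and the median UMIs per cell ran from 2966 in the Gpnmb cluster to 24040 in the Mpo cluster. The heat map of the members by cluster shows these groups.

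**Figure D1:**
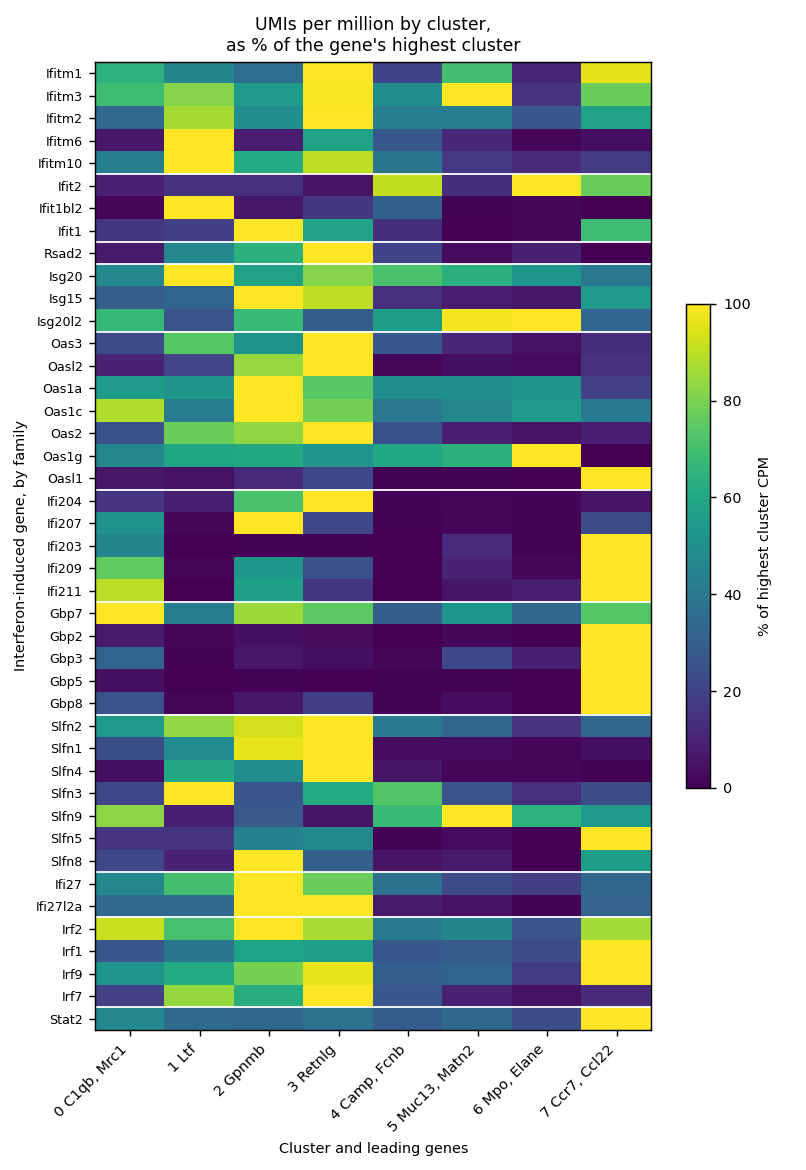
Level of each of 43 members in each of 8 clusters over the 4 libraries together, as a percentage of the gene's own highest cluster (colour; CPM, rows grouped by family and, within a family, ordered by UMIs; columns are clusters with leading genes). Most Gbp genes and Stat2 are brightest in cluster 7, and most Oas genes in cluster 2 or cluster 3. Slfn1, Slfn4 and Irf7 are brightest in cluster 3, with cluster 1 next for Slfn4 and Irf7.

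Most Gbp genes and Stat2 were highest in the dendritic cell-like cluster. Guanylate-binding proteins attack vacuoles that hold pathogens, and Gbp2 stood at 68.9 CPM in cluster 7 against 4.99 in the next highest, cluster 0. Gbp2 had 0 UMIs in the Mpo cluster, so that cluster 7 was at least 264-fold higher. Gbp5 stood at 49.6 CPM in cluster 7 against 2.05 in cluster 0, and 103 cells thus held 47.4% of its UMIs. Gbp3 and Gbp8 followed the same order. Gbp7 did not, since it was highest in cluster 0 at 26.2 CPM with cluster 2 at 22.3, a difference within counting error. Stat2, a subunit of the factor that binds the ISRE, stood at 39.3 CPM in cluster 7 and between 9.22 and 18.4 in the other 7 clusters. Irf1, a factor induced by interferon-γ, was also highest there, at 45.5 CPM, with clusters 2 and 3 next at 26.3 and 25.7. Irf9, another subunit of that factor, was at 26.9 CPM in cluster 7 and 25.8 in cluster 3, which did not differ beyond counting error.

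The mature neutrophil-like and Gpnmb clusters held another set. The members highest in the Gpnmb cluster depended on the clustering, as given in the last section. Irf7, which drives interferon-α genes, stood at 28.1 CPM in the Retnlg cluster and 23.7 in the Ltf cluster, against 1.31 in the Mpo cluster. Oasl2 and Oas3, relatives of the sensors of double-stranded RNA, were highest in the Retnlg cluster at 34.0 and 26.2 CPM, with 28.7 of Oasl2 in the Gpnmb cluster and 19.3 of Oas3 in the Ltf cluster. Isg15 stood at 33.4 CPM in the Gpnmb cluster and 30.2 in the Retnlg cluster, which overlapped in counting error. Slfn1 stood at 319 and 307 CPM in clusters 3 and 2 and at 3.74 in the Mpo cluster. Slfn4 followed at 127 CPM in cluster 3, 76.6 in cluster 1 and 62.2 in cluster 2. Ifi27l2a stood at 203 and 202 CPM in clusters 3 and 2, against 1.83 in cluster 6. By RefSeq positions Ifi27 lies within Ifi27l2a on chromosome 12 (103434189 to 103440245, inside 103433873 to 103443680). Some reads of these 2 genes may thus not be told apart, although their counts differed, with 311 and 21 UMIs in cluster 6.

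Members of a family were highest in different clusters. Among the HIN-200 genes, which lie side by side on chromosome 1, Ifi204 was highest in the Retnlg cluster (66.9 CPM) and Ifi207 in the Gpnmb cluster (42.5). Ifi203 was found almost wholly in clusters 0, 5 and 7, which held 600, 89 and 60 of its 757 UMIs, with 1 to 3 UMIs in each of the other 5. Among the Slfn genes, Slfn9 was highest in cluster 5 (8.89 CPM) and cluster 0 (7.33), which did not differ beyond counting error, and was at 0.487 in the Retnlg cluster, where Slfn1, Slfn2 and Slfn4 were highest. Slfn5 was highest in cluster 7 (22.7 CPM), Slfn8 in cluster 2 (12.3) and Slfn3 in cluster 1 (14.5). Among the IFIT genes, whose proteins bind viral RNA, Ifit2 was highest in the Mpo cluster (6.27 CPM) and cluster 4 (5.69), where Isg15 stood at 2.18 and 4.45. Ifit1bl2 stood at 11.2 CPM in the Ltf cluster and 0.735 in the Gpnmb cluster. Ifit1, across the 145 shared bases printed above, stood at 0.943 and 4.999 CPM in those same clusters. The counts behind them were 131 and 5 UMIs for Ifit1bl2, and 11 and 34 for Ifit1. Of those 34, single cells held 10, 6 and 3. Ifit1 in the Gpnmb cluster did not differ beyond counting error from cluster 7 (log2 ratio 0.54, -0.82 to 2.25), where 1 cell held all 5 UMIs. Near-identical copies in the HIN-200, Oas1, Ifit, Gbp and Slfn families can lose or share reads in counting, and the share between copies is uncertain.

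In the Ifitm family, Ifitm1 and Ifitm2 were highest in the Retnlg cluster at 6954 and 1306 CPM, and Ifitm1 in cluster 7 (6679) was close behind. Ifitm1 stood at 713 CPM in the Mpo cluster, 1390 in cluster 4, 3159 in the Ltf cluster and 6954 in the Retnlg cluster. CPM are shares of a cluster's UMIs and not levels per cell. In the same order, the median UMIs per cell of these clusters fell from 24040 to 13536, 6069 and 4601.5. The Mpo cluster gave 8196 Ifitm1 UMIs from 463 cells, the Retnlg cluster 42801 from 1218 and cluster 5 84028 from 800. Ifitm6 was highest in the Ltf cluster, at 2351 CPM, with 1354 in the Retnlg cluster and 29.8 in the Mpo cluster. The highest clusters of Ifitm1, Ifitm2 and Ifitm6 depended on the clustering, as given in the last section. Ifitm3 ranged from 272 CPM in the Mpo cluster to 1764 in cluster 5, and Ifitm2, with the smallest range of these 4 genes, from 359 in the Mpo cluster to 1306. Isg20, an RNA exonuclease, varied little between clusters, from 11.7 CPM in cluster 7 to 29.3 in the Ltf cluster.

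ISO over PBS in WT cells asks how β-adrenergic stimulation during MDSC growth bears on these genes. Over whole libraries nearly all differences were small, and the log2 ratios of the 4 abundant Ifitm genes ran from 0.04 to 0.35. No member was at least 2-fold higher and 1 of 44, Ifi203, was at least 2-fold lower. Of all 12988 genes, 0.562% were at least 2-fold higher and 3.72% lower. The median log2 ratio was 0.04 over the members and -0.02 over all genes, and 39 of the 44 differed by less than 1.5-fold. At least 1.5-fold higher were 3 members, against 2.78% of all genes, and lower 2, against 8.85%. Ifi203 stood at 8.03 CPM in WT + PBS and 3.81 in WT + ISO, a log2 ratio of -1.08 (-1.42 to -0.73). The cluster that holds most of it, cluster 0, took 20.05% of the cells of WT + PBS and 12.8% of those of WT + ISO. Within cluster 0 Ifi203 stood at 19.6 and 13.6 CPM (-0.53, -0.96 to -0.11), and there the 8 dendritic cell markers summed to 1572 and 741 CPM. The part of these shifts in the result was not tested.

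The other members that led this comparison were, on the higher side, Oas1a at 4.80 and 7.28 CPM (log2 ratio 0.60, 0.27 to 0.94), Slfn3 at 4.71 and 6.94 (0.56), Oas2 at 2.17 and 3.10 (0.51), Irf7 at 6.35 and 9.05 (0.51, 0.22 to 0.81) and Ifit2 at 2.25 and 3.20 (0.50). On the lower side they were Ifi27l2a at 55.1 and 39.4 CPM (-0.49, -0.60 to -0.37), Gbp7 at 17.9 and 13.7 (-0.39) and Irf2, a repressor of interferon genes, at 99.0 and 78.3 (-0.34, -0.42 to -0.25). As families, the OAS genes summed to 24.8 and 31.1 CPM (log2 ratio 0.33), the HIN-200 genes to 33.1 and 24.4 (-0.44) and the GBP genes to 24.2 and 18.7 (-0.37). Irf1 at 14.2 and 14.3 CPM and Stat2 at 13.9 and 13.1 did not differ beyond counting error. With the clusters held at equal weights Ifi203 lay at -0.31, no longer past 2-fold. The median member ratio was then 0.20, against 0.01 over all genes. Above 0 lay 33 of the 44 members instead of 24 (54.5%, against 45.8% of all genes). The share of all genes above 0 at equal weights was not computed. Ifi207 and Ifi209 then lay at 0.39 and 0.67 instead of -0.26 and -0.38.

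In the libraries labelled β2AR-/-, the differences with ISO were again small. No member passed 2-fold in either direction, against 0.57% of all genes higher and 0.878% lower, and the median log2 ratio was 0.03 over the members and -0.04 over all genes. At 1.5-fold 1 member was higher and 1 lower, against 2.6% and 3.17% of all genes. The members that led were Ifitm10 at 2.73 and 5.22 CPM (0.93, 0.49 to 1.38), Slfn4 at 23.4 and 33.8 (0.53, 0.37 to 0.69), Ifitm6 at 514 and 712 (0.47, 0.44 to 0.50), Oasl2 at 6.86 and 8.83 (0.36) and Irf7 at 9.42 and 12.04 (0.35, 0.09 to 0.61) on the higher side. On the lower side they were Ifi209 at 7.63 and 5.63 CPM (-0.44), Ifi207 at 14.2 and 10.5 (-0.43, -0.68 to -0.19), Slfn8 at 3.29 and 2.27 (-0.53), Ifi27l2a at 78.4 and 72.8 (-0.11) and Irf2 at 120 and 113 (-0.09). Side by side with WT, which shares no library with this comparison, 30 of 44 members (68.2%) had the same sign, against 52.7% of all genes. Slfn4 had a log2 ratio of 0.50 in WT and 0.53 with the β2AR-/- label, Irf7 0.51 and 0.35, Ifitm6 0.35 and 0.47, Ifitm3 0.20 and 0.26, Ifitm2 0.15 and 0.23, and Ifitm1 0.04 and 0.21. Ifi203 was at 9.67 and 8.94 CPM with the β2AR-/- label, a log2 ratio of -0.11 (-0.40 to 0.17), and Oas1a at 5.92 and 5.94. No test of the difference between the genotypes was possible.

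**Figure D2:**
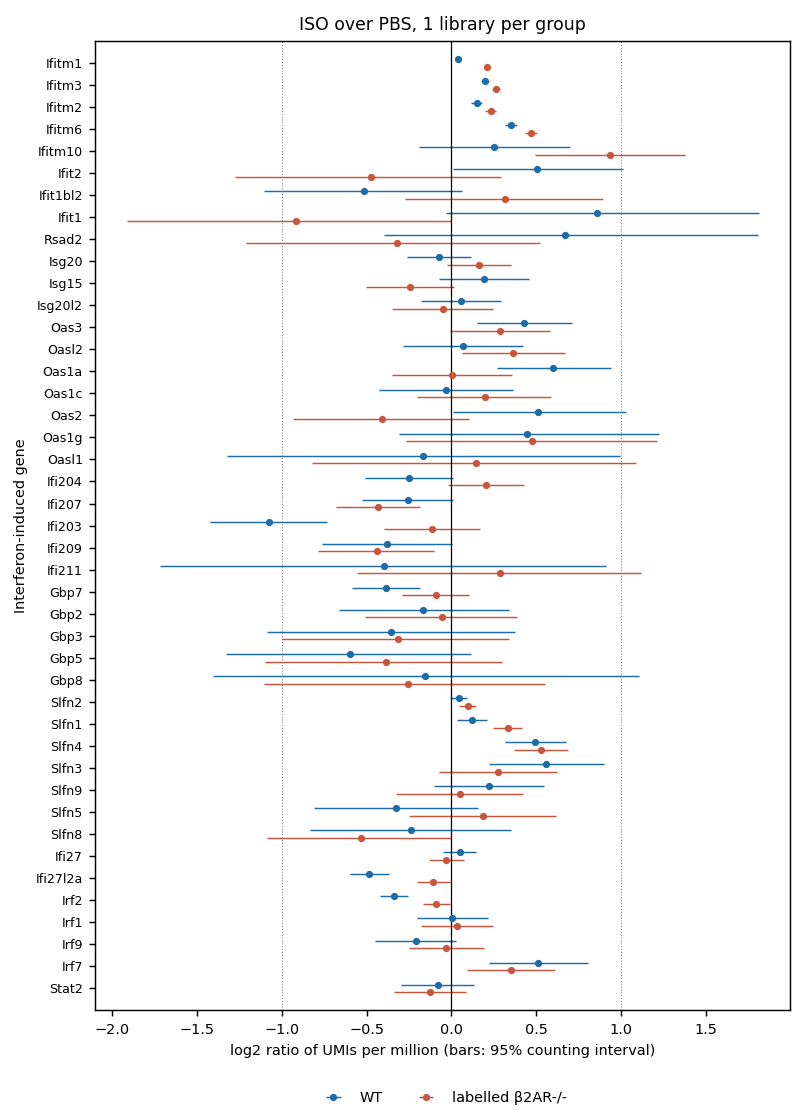
Log2 ratio of CPM, ISO over PBS, for each of 43 members in WT (blue) and in the libraries labelled β2AR-/- (red), with 95% counting intervals; the dotted lines mark 2-fold and there is 1 library per group. Ifi203 in WT lies at -1.08, and the 4 abundant Ifitm genes and Slfn4 lie above 0 in both.

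The Ifitm ratios differed between clusters, and in some they were larger than over whole libraries. In cluster 4 Ifitm1 stood at 996 CPM with PBS and 1800 with ISO in WT, and at 837 and 1601 in the libraries labelled β2AR-/-. These are log2 ratios of 0.85 (0.80 to 0.91) and 0.94 (0.86 to 1.01). In the Mpo cluster it stood at 425 and 785 CPM in WT (0.88, 0.79 to 0.98) and at 615 and 1275 with the β2AR-/- label (1.05, 0.95 to 1.15). In both clusters both ISO libraries were above both PBS libraries. The same order held in the Ltf cluster, with log2 ratios of 0.65 and 0.39, and in the Retnlg cluster, with 0.57 and 0.53. In cluster 5 Ifitm1 hardly differed with ISO (-0.01 and -0.03), while the libraries labelled β2AR-/- stood at 6121 and 6006 CPM and the WT libraries at 4068 and 4031.

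Ifitm3 went the same way and reached the largest difference in the Mpo cluster, where it stood at 141 CPM in WT + PBS, 335 in WT + ISO, 211 with the label β2AR-/- + PBS and 444 with β2AR-/- + ISO. The log2 ratios were 1.25 (1.09 to 1.41) and 1.07 (0.90 to 1.25). Of the 17 members with at least 50 UMIs in the Mpo cluster, 1 (Ifitm3) was at least 2-fold higher with ISO in WT, against 0.705% of the 8931 genes of the cluster, and 2 (Ifitm1 and Ifitm3) with the β2AR-/- label, against 2.03%. The smallest group there was 55 cells. In cluster 4 the log2 ratios of Ifitm3 were 0.60 and 0.69. The 5 azurophil-granule markers in the Mpo cluster summed to 24584 and 22684 CPM in WT and to 25412 and 20723 with the β2AR-/- label. The 6 specific-granule markers in cluster 4 summed to 37971 and 43453 CPM in WT and to 39080 and 46280 with the β2AR-/- label, higher with ISO in both. Their part in the Ifitm values was not tested.

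Cluster 0 had log2 ratios of opposite sign in the 2 genotypes. Ifitm1 there stood at 4653 CPM with PBS and 3971 with ISO in WT (-0.23, -0.25 to -0.20), and at 4312 and 4972 with the β2AR-/- label (0.21, 0.19 to 0.22). The 6 mature neutrophil markers in this cluster summed to 699 and 466 CPM in WT (-0.59) and to 593 and 692 with the β2AR-/- label (0.22), the same signs as Ifitm1, and their part in its values was not tested. This cluster held 142045 of the 361752 Ifitm1 UMIs, and the whole-library log2 ratio of Ifitm1 in WT was 0.04. With clusters at equal weights it was 0.35 in WT and 0.31 with the β2AR-/- label. Ifitm2 in cluster 0 also stood lower with ISO in WT, at 454 and 329 CPM (-0.47), and level with the β2AR-/- label, at 468 and 488 (0.06).

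**Figure D3:**
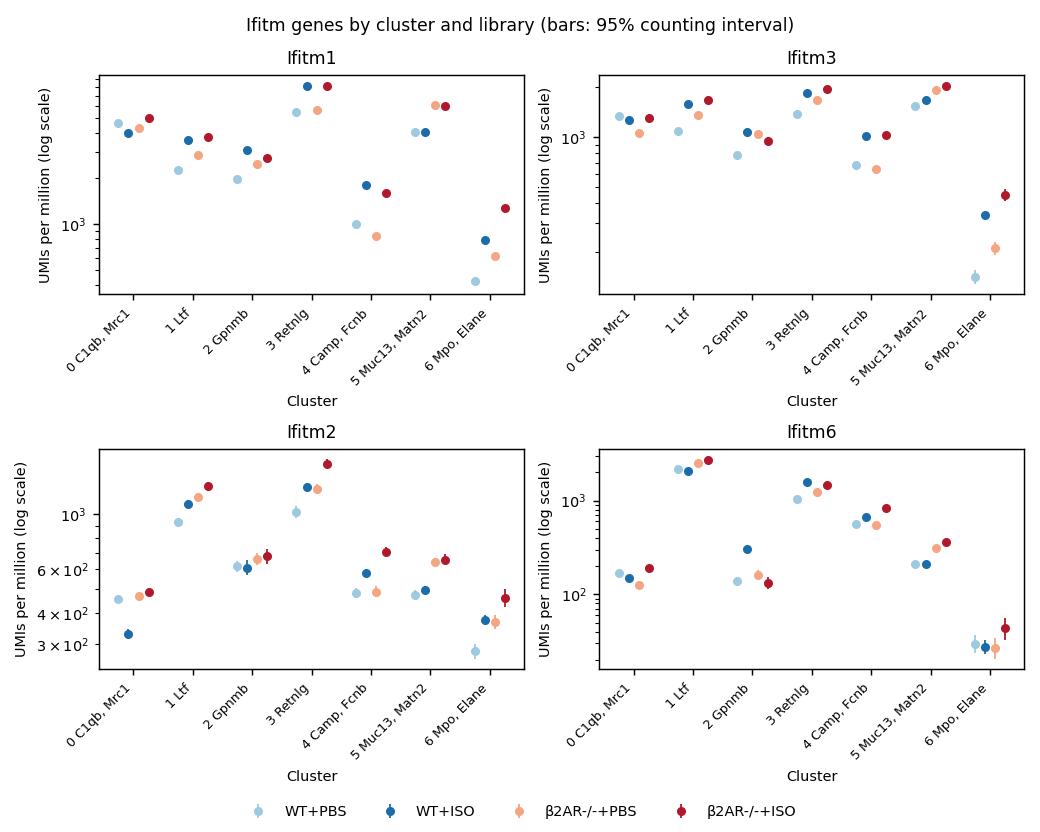
CPM (log axis) of Ifitm1, Ifitm3, Ifitm2 and Ifitm6 in clusters 0 to 6 in each of the 4 libraries; points are 1 library each and bars are 95% counting intervals. In clusters 4 and 6 both ISO libraries lie above both PBS libraries for Ifitm1 and Ifitm3, and in cluster 0 WT + ISO lies below WT + PBS for all 4 genes.

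Other members also took different directions in different clusters of the same culture. In WT, Ifi27l2a was lower with ISO in cluster 0 (62.9 and 36.8 CPM, log2 ratio -0.77), the Gpnmb cluster (202 and 127, -0.67) and the Retnlg cluster (217 and 152, -0.51). In the Ltf cluster it was higher, at 42.2 and 92.4 CPM (1.13, 0.81 to 1.46), and in cluster 5 at 4.58 and 10.0 (1.13, 0.36 to 1.96). With the β2AR-/- label the same 5 clusters gave log2 ratios of -0.22, -0.19, -0.06, -0.10 and 0.65. Isg15 in the Gpnmb cluster stood at 24.2 CPM in WT + PBS and 45.8 in WT + ISO (0.92, 0.36 to 1.47), against 33.7 and 35.3 with the β2AR-/- label. Of its 227 UMIs in this cluster over the 4 libraries, single WT + ISO cells held 15 and 5. A cell labelled β2AR-/- + PBS held 4. These are among the 9 cells rich in Ifit1 described below, of which WT + PBS held none. The ratio in this cluster without them was not computed. Ifit1bl2 in the Ltf cluster stood at 17.2 and 7.33 CPM in WT (log2 ratio -1.23) and at 11.0 and 11.2 with the β2AR-/- label. Slfn4 in the same cluster stood at 46.3 and 80.9 CPM (0.80) and at 70.1 and 107 (0.61), higher with ISO in both.

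The libraries labelled β2AR-/- were higher than the WT libraries for most members. With PBS, 39 of 44 members (88.6%) lay above 0 on the log2 scale, against 49.1% of all genes, and the median log2 ratio was 0.26 over the members and -0.00 over all genes. With ISO, 36 of 44 (81.8%) lay above 0, against 50.6%, with medians of 0.37 and 0.01. With clusters at equal weights the counts were 36 and 26 of 44, with median log2 ratios of 0.21 and 0.08, against -0.02 and -0.02 over all genes. The shares of all genes above 0 were not computed at these weights. Cluster 0 took 29.2% and 25.3% of the cells with the β2AR-/- label, against 20.05% and 12.8% in WT. Fewer cells of a type and less RNA per cell cannot be told apart in such whole-library values. Counts within clusters took members with at least 50 UMIs there. With PBS, members above 0 in clusters 0 to 3 were 30 of 38, 21 of 26, 22 of 27 and 21 of 25. In clusters 4 to 6 they were 13 of 25, 15 of 21 and 11 of 17. Of all genes 41.0% to 50.9% lay above 0. With ISO the counts were 25 of 38, 13 of 26, 13 of 27 and 15 of 25. In clusters 4 to 6 they were 11 of 25, 13 of 21 and 12 of 17, against 40.6% to 50.4%.

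At least 2-fold higher with PBS were 4 members, against 1.63% of all genes. All 4 had few UMIs: Gbp8 stood at 0.492 CPM in WT and 1.30 with the β2AR-/- label (log2 ratio 1.40, 0.43 to 2.47), Rsad2 at 0.492 and 1.23 (1.32, 0.34 to 2.40), Ifit1 at 0.656 and 1.37 (1.06) and Ifi211 at 0.492 and 1.02 (1.05). With clusters at equal weights Gbp8 and Rsad2 lay at 1.93 and 1.21, and Ifit1 and Ifi211 no longer passed, at 0.88 and 0.74. These values have no interval and leave out cluster 7, where Gbp8 and Ifi211 were highest. With so few UMIs they do not show which ratios hold at a fixed mix of clusters. No member was at least 2-fold lower, against 0.701% of all genes. At 1.5-fold 8 members were higher, against 5.2% of all genes, and 0 lower, against 3.07%. Among members with more UMIs, Ifi209 stood at 4.96 and 7.63 CPM (0.62), Ifi207 at 9.47 and 14.2 (0.59), Slfn8 at 2.05 and 3.29 (0.68), Oas2 at 2.17 and 3.36 (0.63) and Irf7 at 6.35 and 9.42 (0.57). Isg20l2, an exonuclease of ribosome assembly that shares a name with Isg20, was lower, at 11.0 and 8.51 CPM (-0.37, -0.63 to -0.11).

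With ISO, 3 members were at least 2-fold higher in the library labelled β2AR-/-, against 5.57% of all genes, and 1 at least 2-fold lower, against 1.42%. At 1.5-fold 9 were higher and 2 lower, against 13.2% and 7.78% of all genes. Ifi211 stood at 0.374 and 1.24 CPM (1.73, 0.64 to 2.91), Ifi203 at 3.81 and 8.94 (1.23, 0.88 to 1.59) and Gbp8 at 0.442 and 1.08 (1.29). With clusters at equal weights none of these 3 passed 2-fold, with log2 ratios of 0.23, 0.39 and 0.49. All 3 were highest in cluster 7, which these values leave out. Ifit2 stood at 3.20 and 1.14 CPM (-1.49, -2.23 to -0.81), and at -1.05 with equal weights. The clusters rich in Ifit2 differed in share between these libraries. Clusters 4 and 6 took 17.4% and 8.22% of WT + ISO and 9.86% and 2.70% of the library labelled β2AR-/- + ISO. Within cluster 4 Ifit2 stood at 6.34 and 3.52 CPM, and within the Mpo cluster at 8.18 and 3.10. Ifi27l2a at 39.4 and 72.8 CPM (0.89, 0.78 to 1.00), Ifi204 at 8.50 and 15.2 (0.84), Oasl2 at 5.24 and 8.83 (0.75), Slfn5 at 2.48 and 4.18 (0.75) and Irf2 at 78.3 and 113 (0.53) were also higher with the β2AR-/- label. Isg20l2 was again lower, at 11.4 and 8.21 CPM (-0.48, -0.76 to -0.20). This pair of comparisons shares no library, and 37 of 44 members (84.1%) had the same sign in both, against 75.0% of all genes.

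**Figure D4:**
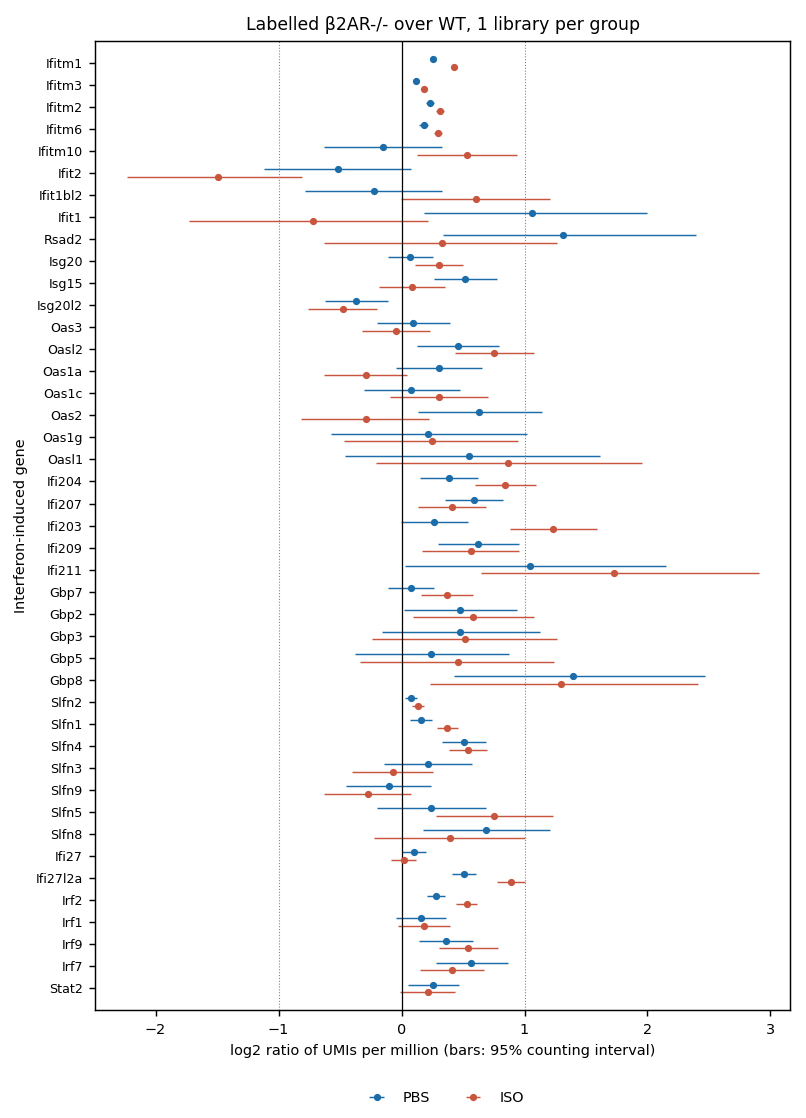
Log2 ratio of CPM, library labelled β2AR-/- over WT, for each of 43 members with PBS (blue) and with ISO (red), with 95% counting intervals; the dotted lines mark 2-fold and there is 1 library per group. Points lie above 0 for 38 of those drawn with PBS and 35 with ISO, and Ifit2 with ISO lies at -1.49.

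A few single cells held a large share of the UMIs of Ifit1 and Oasl1. Just 9 of the 9303 cells held at least 3 Ifit1 UMIs, and these 9 held 45.2% of all Ifit1 UMIs and 0.0827% of all UMIs. They were found in 3 libraries, 4 in WT + ISO, 4 in the library labelled β2AR-/- + PBS and 1 in that labelled β2AR-/- + ISO, and in 5 clusters. The same 9 cells held 23.9% of the UMIs of Oasl1, 19.2% of Cxcl10, a chemokine that draws T cells, 11.2% of Rsad2, 10.7% of Usp18, a brake on the interferon receptor, and 7.53% of Isg15. Cxcl10 was found in 4 of the 9, and 1 WT + ISO cell held 40 of their 50 UMIs of it. They held 0.0746% of Ifitm1, no more than their share of all UMIs, and 1.30% of Irf7. All 9 held Isg15. The cell with the most Ifit1, from WT + ISO, held 10 UMIs of it with 15 of Isg15 and 3 of Rsad2. These genes and cells were singled out after their values were seen.

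Ifit1 stood at 0.656 CPM in WT + PBS, 1.19 in WT + ISO, 1.37 with the label β2AR-/- + PBS and 0.723 with β2AR-/- + ISO. Its log2 ratio for ISO in WT was 0.86 (-0.03 to 1.81) and, without the 9 cells, -0.81 (-2.06 to 0.39). WT + PBS held none of the 9, and they were chosen by their Ifit1 UMIs, so a lower ratio without them was fixed by the choice. For the β2AR-/- label with PBS it was 1.06 and, without them, 0.17, a fall likewise fixed by the choice. For Rsad2 the latter ratio was 1.32 with the 9 cells and 1.19 without them. At the other end, the 10 cells richest in Ifitm1 held 1.24% of its UMIs and those richest in Slfn2 0.682%, and Ifitm1 was found in 7527 cells and Slfn2 in 7882. These shares also depend on a gene's UMI total, since any 10 cells hold more of a sparse gene. Ifi211, with 76 UMIs in 68 cells, gave 23.7%, and Gbp8, with 83 in 80 cells, 15.7%. The plot of shares by number of cells shows the range between these ends.

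**Figure D5:**
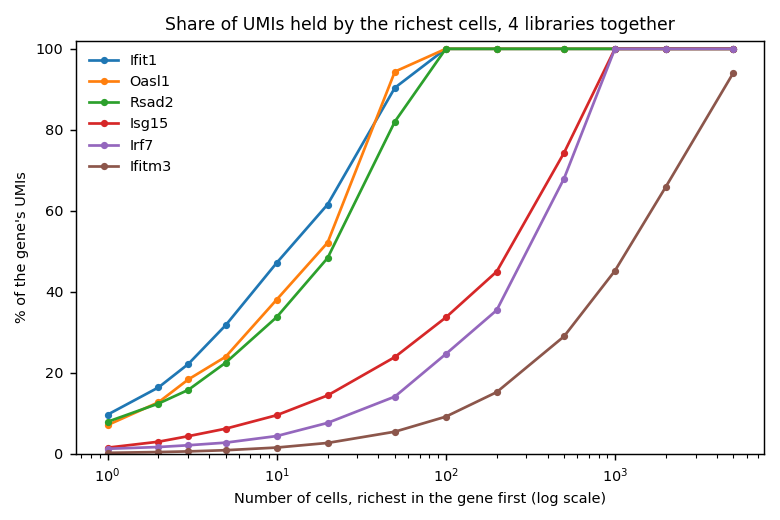
Share of a gene's UMIs (%) held by its richest cells, against the number of cells counted (log axis), for Ifit1, Oasl1, Rsad2, Isg15, Irf7 and Ifitm3 over the 4 libraries together. The 10 richest cells hold 47.1% of Ifit1, 38.0% of Oasl1, 33.7% of Rsad2 and 1.49% of Ifitm3. The share also depends on the gene's UMI total.

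The rest of the pathway was measured by 5 lists. Over the 4 comparisons 0.562% to 5.57% of all genes were at least 2-fold higher and 0.701% to 3.72% lower, so that few or no calls in lists of this size are near the background. Of the 9 receptor and kinase genes, 9 had at least 50 UMIs and none passed 2-fold in any of the 4 comparisons. The 2 with the most UMIs were the kinases Jak2 and Jak1. Jak2 stood at 132 CPM in WT + PBS, 76.0 in WT + ISO, 145 with the label β2AR-/- + PBS and 138 with β2AR-/- + ISO, so that WT + ISO lay below the other 3. Jak1 stood at 124, 111, 123 and 118 CPM. Of 17 sensors and adaptors in the gene list, 15 had at least 50 UMIs and none passed 2-fold. The most abundant were Unc93b1, the chaperone of endosomal Toll-like receptors, at 97.2 to 101 CPM, and Irf5, at 64.8, 46.2, 68.0 and 65.7. Of 9 measured brakes, 1 passed 2-fold, Socs3, an inhibitor of JAK signalling downstream of IL-6. It stood at 48.7, 32.1, 69.4 and 72.3 CPM in the same order, a log2 ratio of 1.17 for the β2AR-/- label with ISO, where 5.57% of all genes were at least 2-fold higher. Ptpn6 and Samhd1, the most abundant of the list, stood at 212 to 241 and 151 to 236 CPM. Of 34 other interferon-induced genes with at least 50 UMIs, none passed 2-fold. Ly6e stood at 462 to 578 CPM and B2m, the light chain of MHC class I, at 346 to 471.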

How the data were processed

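The files the authors deposited hold unnormalized UMI counts, 1 matrix of genes by cells for each of 4 libraries. The file header names Cell Ranger 7.0.0, whereas the submitters' processing notes name Cell Ranger 6.0.0, Seurat and mm10. Whether introns and strand were used in counting is not given in the sources used here. Members and lists were chosen with earlier results of these data known.

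A barcode was used if it had 200 genes or more and no more than 10% of its UMIs from mitochondrial genes (9303 of 9525), which gave medians of 7484 to 10252 UMIs per cell. No doublet caller was run, and doublets and free RNA may add to low values. Counts were scaled to 10000 per cell and clustered with scanpy 1.11.5 (2000 variable genes without members and lists, 30 principal components, 15 neighbours, Leiden resolution 0.4, seed 0). A cluster was named from fixed markers where at least 3 of a class were in 10% of its cells, their mean log2 ratio to the other cells was at least 1 and at least 1 was among its 10 leading genes. That threshold was chosen with the clusters in view.

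CPM are UMIs summed over the kept cells of a library or cluster and scaled to 1000000. Log2 ratios carry exact conditional binomial 95% intervals for counting error. They were run on data simulated with the same counting error, which cannot show how they behave where UMIs gather in single cells. With 1 library per group no p-value was computed, and UMI sums cannot show the spread between cultures. Clusters were compared between libraries with at least 50 cells in each. Equal cluster weights left out cluster 7, which fell short of this. The genes named are the 2 members of each family with the most UMIs, the 5 highest and 5 lowest ratios of each comparison among members with at least 100 UMIs and an interval off 0, and Irf1, Irf2, Irf7, Irf9 and Stat2. Some items that this rule or the study design would name are not reported here. Ifit1, Ifit1's neighbours in single cells (Oasl1, Cxcl10, Usp18), Ifi211, Ifitm2, Gbp3, Gbp5, Gbp8 and Slfn9 were added after their values were seen. The 12 surface-tag features were left out, and 0 other columns were left unused. Alternatives to the scaling, filters, fold, weights and clustering were run. Gene positions and promoters are from RefSeq, GRCm38.p6.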

Additional observations from a re-analysis of the deposited data

Results flagged for a closer look

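Within clusters, 6 results pointed opposite ways with ISO in WT and in the libraries labelled β2AR-/-, with both counting intervals leaving out 0. All 6 are of Ifitm1, Ifitm3 or Ifitm6, which are abundant. Only members were searched, so the share of all genes that would meet the same rule is not known. The differences between the genotypes were not tested, because each group is 1 library, and for genes with this many UMIs counting intervals are narrow beside any spread between cultures. In cluster 0, led by Mrc1 and C1qb, the log2 ratio of ISO over PBS was larger with the β2AR-/- label than in WT by 0.43 for Ifitm1 (0.21 against -0.23), by 0.40 for Ifitm3 (0.31 against -0.09) and by 0.77 for Ifitm6 (0.59 against -0.18). In that cluster the mature neutrophil markers summed to 699 and 466 CPM in WT and to 593 and 692 with the β2AR-/- label, the same signs as these genes. The macrophage markers there summed to 396 and 201 CPM in WT + PBS and WT + ISO and to 668 and 520 with the β2AR-/- label, and their part in these results was not tested. In the Ltf cluster the difference for Ifitm6 was 0.18 (0.11 against -0.07). In the Gpnmb cluster the difference, labelled β2AR-/- minus WT, was -0.60 for Ifitm3 (-0.13 against 0.47) and -1.45 for Ifitm6 (-0.29 against 1.16). The 6 specific-granule neutrophil markers in the Gpnmb cluster summed to 3331 and 7766 CPM in WT and to 3665 and 4198 with the β2AR-/- label, higher with ISO in both. Whether they bear on Ifitm6 was not tested.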

How the results depend on the processing

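No paired analysis was possible because the 4 groups have 1 library apiece, all numbered 1, and so no replicate could be left out either. Over 952 values of 34 named members under other settings, 855 fell inside the 95% interval of the value reported. Equal cluster weights moved 46 of 136 outside it and equal cell weights 35 of 136, against 0 to 6 for the other settings. With clusters at equal weights, members at least 2-fold higher and lower numbered 3 and 0 for ISO in WT, and 0 and 2 for the β2AR-/- label with ISO. With cells at equal weights the lower counts of these 2 comparisons were 0 and 0. For these weights the shares of all genes past 2-fold were not computed. At 1.5-fold the higher and lower counts were 3 and 2 for ISO in WT, 1 and 1 for ISO with the β2AR-/- label, 8 and 0 for that label with PBS, and 9 and 2 with ISO. With at least 200 UMIs the higher counts for the label were 0 with PBS and 1 with ISO. For ISO with the β2AR-/- label, stricter cell filters gave 1 higher and 1 lower, and leaving out the 1% of cells richest in members gave 1 lower. The shares of all genes past 2-fold were not computed for the 200-UMI minimum or for these cell settings either. The log2 ratio of summed members for ISO in WT (0.10) was 0.14 with median-of-ratios scaling, 0.14 without the 20 most abundant genes, 0.28 with clusters and 0.27 with cells at equal weights, 0.11 without the richest cells, 0.16 without Ifitm1 and -0.03 without the whole Ifitm family. With the β2AR-/- label (0.22) the same settings gave 0.24, 0.26, 0.25, 0.24, 0.24, 0.24 and, without the whole Ifitm family, 0.06. For the label with PBS (0.22), median-of-ratios scaling gave 0.23, equal cluster weights 0.19, equal cell weights 0.20 and leaving out Ifitm1 0.17. For the label with ISO (0.35) they gave 0.32, 0.15, 0.18 and 0.26. With members kept in the clustering, 14 members were highest in the cluster richest in Gpnmb and 1 in that richest in Matn2. Of these, none had been highest in the matching main cluster. In the Retnlg-richest cluster 16 were then highest, without Oas3, Ifitm1, Ifitm2 and Irf7 of the main set. Ifitm6 and Isg20 were then not highest in the Ltf-richest cluster, nor Ifit2 in the Mpo-richest. At resolution 0.8, 2 were highest in the Gpnmb-richest cluster, 5 in the C1qb-richest, 1 in the Mpo-richest and 0 in the Matn2-richest. Of the main Gpnmb set only Ifi207 was then still in the Gpnmb-richest cluster. Isg20 was again not highest in the Ltf-richest cluster, nor Ifit2 in the Mpo-richest. Leaving out the 9 cells with at least 3 Ifit1 UMIs was chosen after seeing the data, and it took the Ifit1 ratio from 0.86 to -0.81 (-2.06 to 0.39) for ISO in WT and from -0.72 to 0.31 (-1.14 to 1.72) for the label with ISO. Since the cells were chosen by Ifit1 and WT + PBS held none, the direction of the first shift was fixed by the choice, and both intervals span 0. For the second, 4 of the chosen cells were from WT + ISO and 1 from the library labelled β2AR-/- + ISO, so that shift is not a test either. The causes of these shifts were not tested. Depth limits the members with the fewest UMIs: for Gbp8, Rsad2 and Ifi211 the intervals for the label with PBS ran from 0.43 to 2.47, 0.34 to 2.40 and 0.03 to 2.15.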
